A study of Mus musculus with 19 samples.

Results

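The genes described here are the Period genes Per1, Per2 and Per3, the cryptochrome gene Cry2 and Ciart, 5 repressors of the circadian clock, measured in whole mouse hearts. Members were chosen by gene symbol alone: all probes that the deposited table names Per1, Per2, Per3, Cry2 or Gm129, the older symbol of Ciart, which came to 8 of 46643 probes. The 5 genes stand among 14759 genes tested, each through 1 probe.

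Hearts came from 19 FVB/N mice, with 1 bead array per animal. Wild-type (WT) and CCM transgenic animals ate normal or high fat food for 16 weeks, and hearts were taken at ZT 18, midway through the phase in which mice are active. Normal food went to 5 WT and 5 CCM animals, and high fat food to 4 WT and 5 CCM animals. Per the labels, CCM mice lack a working clock in cardiomyocytes only. The model is known to carry a dominant-negative form of CLOCK driven by a cardiac myosin heavy chain promoter, so the other cells of the heart keep their own clock and add their RNA to every array. In such whole tissue, fewer cells of a type and less RNA per cell cannot be told apart, and with a single sampling time a changed level and a shifted daily rhythm cannot be told apart either.

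The circadian clock is a feedback loop of transcription. CLOCK and its partner BMAL1, the product of Arntl, bind E-box sequences and switch on the Per and Cry genes, whose proteins then return to the nucleus and inhibit CLOCK and BMAL1. CIART, also called CHRONO, is a further repressor of the same pair. D-box sequences, bound by the transcription factors DBP and TEF, add to the control of some of these genes, and Per1 also responds quickly to glucocorticoids and to signals that act through CREB.

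The promoters of the repressors differ in the clock sequences they hold, and they are shown for the members that differed most between genotypes and for the first start of Per1, which did not pass the test. RefSeq windows from 250 bases before to 50 bases after a start (GRCm38.p6) were found for 4 of the 5 members, and Per2 was not among them. Capitals mark each match, on either strand, to any of the motifs searched. These were the E-box CACGTG and a weaker E-box that ends in a different base, CACGTT. The D-boxes were TTATGTAA and TTATGCAA, and the cyclic AMP response element was TGACGTCA. The windows read as follows, 5′ to 3′ on the strand of the gene.
Ciart, chr3:95882179-95882478, minus strand: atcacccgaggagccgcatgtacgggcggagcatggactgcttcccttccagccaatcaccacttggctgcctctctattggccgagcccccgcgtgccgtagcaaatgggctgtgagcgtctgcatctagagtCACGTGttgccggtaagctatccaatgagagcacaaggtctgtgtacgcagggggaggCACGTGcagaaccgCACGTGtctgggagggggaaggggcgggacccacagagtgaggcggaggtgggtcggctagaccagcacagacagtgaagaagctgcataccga
Per3, chr4:151044616-151044915, minus strand: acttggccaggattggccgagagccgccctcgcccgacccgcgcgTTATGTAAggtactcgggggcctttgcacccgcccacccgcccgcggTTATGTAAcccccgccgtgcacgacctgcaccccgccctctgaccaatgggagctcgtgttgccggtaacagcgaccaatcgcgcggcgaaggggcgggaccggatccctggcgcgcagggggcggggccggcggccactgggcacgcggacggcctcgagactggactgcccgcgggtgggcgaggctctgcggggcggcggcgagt
Cry2, chr2:92434020-92434319, minus strand: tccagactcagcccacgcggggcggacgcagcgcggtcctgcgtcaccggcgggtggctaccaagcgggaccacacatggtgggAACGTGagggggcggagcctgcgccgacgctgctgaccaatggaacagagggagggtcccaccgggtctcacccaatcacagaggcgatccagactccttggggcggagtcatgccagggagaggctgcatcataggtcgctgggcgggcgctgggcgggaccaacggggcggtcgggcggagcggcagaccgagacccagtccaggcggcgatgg
Per1, first start, chr11:69098699-69098998, plus strand: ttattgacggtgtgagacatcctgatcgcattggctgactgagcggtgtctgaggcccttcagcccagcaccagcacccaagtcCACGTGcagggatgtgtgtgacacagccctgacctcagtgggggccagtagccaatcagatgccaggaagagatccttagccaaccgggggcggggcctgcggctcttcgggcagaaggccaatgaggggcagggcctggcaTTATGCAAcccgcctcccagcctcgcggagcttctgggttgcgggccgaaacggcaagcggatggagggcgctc

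Ciart held 3 E-boxes, starting 116, 58 and 44 bases before its start. An E-box was present in 7.15% of 32851 mouse promoter windows of this length, and 3 or more in 0.0883% of them (29 windows). Per3 held no E-box and 2 copies of the D-box TTATGTAA, starting 205 and 158 bases before its start, where 0.938% of windows held 1 or more and 0.0213% held 2 or more. The first start of Per1 had 1 E-box at 166 bases and 1 TTATGCAA at 24 bases before the start, the latter present in 0.743% of windows. Cry2 had 1 weaker E-box, read as AACGTG on the strand of the gene, at 166 bases before its start (4.68% of windows), and the second start of Per1 (chr11:69099902-69100201) had no match to any of these motifs. None of these matches overlapped another. The cyclic AMP response element stood in 1.79% of all windows and in none of these 5. A match describes letters in a window, not a bound site.

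A run of 14 letters, cgtgttgccggtaa, stood in the windows of both Ciart and Per3, starting 114 and 103 bases before their starts. It was looked for after the sequences had been read. It was the longest run that any pair of windows of different genes shared, on either strand. It occurred in 3 of the 32851 windows (0.00913%), the last being that of Gm38529, which covers the same stretch as the Per3 window on the opposite strand. In Ciart its first 4 letters are the last 4 of the E-box farthest from the start. A run picked for its length is rare in other windows, so its share is a description and no test.

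All values below are normalized log2 signals unless raw signals are named. A probe counts as detected on an array at a detection p under 0.05. A difference passed the test at an adjusted p under 0.05 in limma, with the Benjamini-Hochberg method over all 14759 genes, and each error after ± is a standard error unless SD is named. Arrays detected 17117 to 18731 probes, their mean raw signals ran from 419 to 580, and values correlated at 0.969 to 0.994 between arrays of a group and at 0.97 to 0.995 between groups. The array of lowest mean signal was WT normal diet replicate 1. The genotype labels were checked on Clock, the gene of the transgene. Its brightest probe read 7.53 ± 0.865 (SD, n = 9) in WT and 15.28 ± 0.183 (SD, n = 10) in CCM hearts, with no overlap. A further Clock probe read 10.74 against 11.23, and the third was detected on no array. The marker genes of cardiomyocytes (8 of 8 measured) averaged 14.87 to 15.01 on every array and none of them passed the test between genotypes. The highest value of any probe was 15.76, so these markers stood near the top of the scale and say little about the share of cardiomyocytes.

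On the normal diet 3 of the 5 repressors fell in CCM hearts, Ciart, Per3 and Cry2, where 1.91% of all genes passed the test in either direction and 1.17% fell. On the high fat diet 1 of 5 fell, Ciart, beside 1.95% of all genes in either direction and 1.09% that fell. Averaged over the diets, the same 3 genes fell (5.02% of all genes passed and 2.62% fell). The median log2 difference of the 5 members was -0.776 on the normal diet, -0.528 on the high fat diet and -0.662 over both, where that of all genes lay between -0.00529 and 0.00837. These counts include Ciart, which passed the detection filter only through the WT arrays and so had to differ. Per1 and Per2 did not pass in any comparison.

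**Figure D1:**
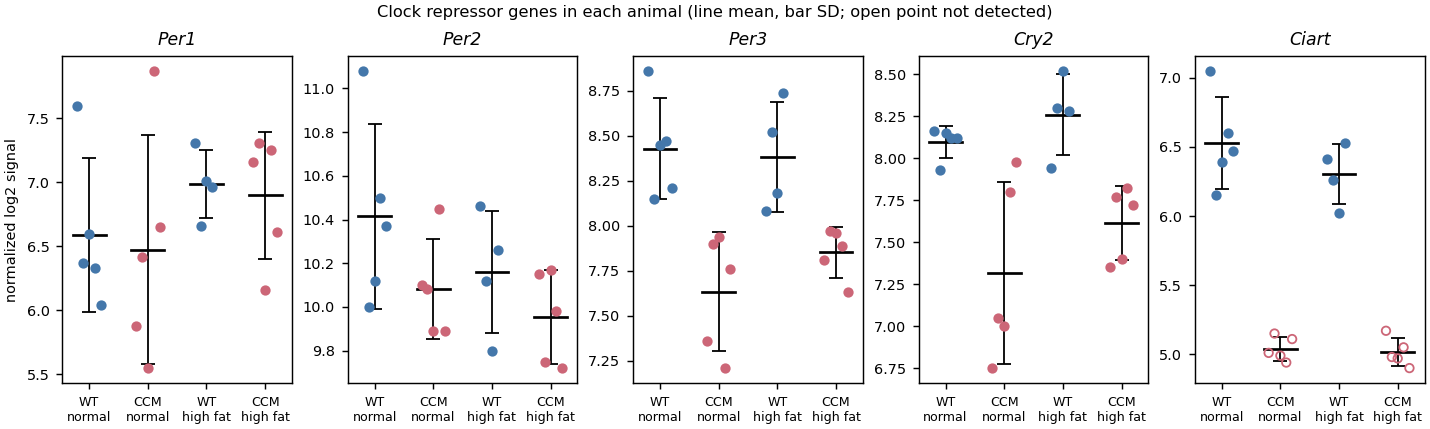
Normalized log2 signal (vertical axes, each panel with its own scale) of the 5 repressor genes in each of the 19 animals, by genotype and diet; points are animals, open points arrays that did not detect the probe, lines group means and bars SD. Ciart was detected in all 9 WT and in none of the 10 CCM hearts, Per3 did not overlap between genotypes, and Per1 spread widely within the groups.

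Ciart showed the largest difference between genotypes among the 5 members. In WT hearts on the normal diet it read 7.05, 6.15, 6.39, 6.60 and 6.47, and in CCM hearts on that diet 5.01, 5.15, 4.99, 4.94 and 5.11. With the high fat diet WT hearts read 6.41, 6.26, 6.02 and 6.53, and CCM hearts 5.17, 4.98, 4.97, 5.05 and 4.90. Every WT heart lay above every CCM heart. Raw signals were 139.8 to 176.8 in WT and 82.85 to 98.27 in CCM hearts.

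The Ciart probe was detected on all 9 WT arrays and on none of the 10 CCM arrays, so its CCM level is known only as not well above background and each fold is a lower bound. That bound sets the WT mean against the mean, over CCM arrays, of the lowest value among detected probes. Ciart was at least 2.09-fold lower in CCM hearts on the normal diet (fitted log2 difference -1.49 ± 0.13, adjusted p = 4.9e-07). In high-fat-fed animals it was at least 1.75-fold lower (-1.29 ± 0.14, adjusted p = 9.7e-06), and averaged over diets at least 1.93-fold lower (-1.39 ± 0.09, adjusted p = 6.73e-09). The fitted differences and their p-values rest on CCM values below detection, for a gene that the filter kept through its WT arrays.

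Per3, the Period protein whose loss changes the murine rhythm least, fell in CCM hearts on the normal diet. WT hearts on the normal diet read 8.86, 8.15, 8.45, 8.47 and 8.21, and CCM hearts 7.36, 7.90, 7.94, 7.21 and 7.76. High fat food gave WT values of 8.08, 8.52, 8.18 and 8.74, and CCM values of 7.81, 7.97, 7.96, 7.89 and 7.63. On the normal diet 1.59% of all genes were lower in every CCM than in every WT heart. All 9 WT values of Per3 lay above all 10 CCM values, but narrowly, since the lowest WT heart read 8.08 and the highest CCM heart 7.97. Over both diets 0.752% of all genes were lower in every CCM heart than in every WT heart.

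The fall of Per3 was 1.74-fold on the normal diet (-0.80 ± 0.16, adjusted p = 0.01). On the high fat diet the difference was -0.53 ± 0.17, and it did not pass (adjusted p = 0.166), although the groups did not overlap there either, as for 2.81% of all genes. The difference between those 2 values was 0.27 ± 0.24 (95% interval -0.23 to 0.76, adjusted p = 1), so a smaller effect on the high fat diet was not shown. Averaged over the diets Per3 fell 1.58-fold (-0.66 ± 0.12, adjusted p = 0.0014). When only the 2 groups on the normal diet were fitted, the adjusted p was 0.0565, and without the 3 arrays of lowest mean signal it was 0.0601 (1.34% of all genes passed there). A second Per3 probe was detected on 3 arrays, all WT, read 4.87 to 5.70 and differed by -0.33 between genotypes. That probe was not tested.

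Cry2 encodes a cryptochrome, the partner through which PER complexes inhibit CLOCK and BMAL1. In WT hearts on the normal diet it read 8.16, 7.93, 8.15, 8.12 and 8.12, and in CCM hearts 6.75, 7.05, 7.0, 7.80 and 7.98. After the high fat diet WT hearts read 7.94, 8.30, 8.52 and 8.28, and CCM hearts 7.35, 7.77, 7.40, 7.82 and 7.72. The WT hearts on the normal diet were the tightest set, with an SD of 0.0948, and the CCM hearts on that diet the widest, with an SD of 0.54. A single CCM heart, at 7.98, reached the WT range on the normal diet. None did on the high fat diet, where 2.81% of all genes were lower in every CCM than in every WT heart.

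Cry2 fell 1.71-fold in CCM hearts on the normal diet (-0.78 ± 0.19, adjusted p = 0.0405). This call was lost without any of 11 single animals, with the highest adjusted p of 0.12 when CCM normal diet replicate 1 was left out. In high-fat-fed hearts the difference was -0.65 ± 0.20 (adjusted p = 0.138). With animal numbers under and over 20 as a block it was -0.61 and passed (adjusted p = 0.0404). Averaged over the diets Cry2 fell 1.64-fold (-0.71 ± 0.14, adjusted p = 0.00313). The difference between the 2 diets' genotype effects was 0.13 ± 0.28 (95% interval -0.46 to 0.71, adjusted p = 1). A second Cry2 probe, for the transcript AK037778, was detected on no array.

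Per2 is a Period gene needed for a lasting rhythm in the mouse. In WT hearts on the normal diet it read 11.08, 10, 10.12, 10.50 and 10.37, and in CCM hearts 10.10, 10.08, 9.89, 10.45 and 9.89. The WT hearts on high fat food read 10.46, 10.12, 9.80 and 10.26, and CCM hearts 10.15, 9.75, 10.17, 9.98 and 9.72. The genotypes overlapped on both diets, and the highest value was that of the WT array with the lowest mean signal.

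The Per2 difference between genotypes was -0.33 ± 0.18 on the normal diet (95% interval -0.70 to 0.04, adjusted p = 0.624) and -0.20 ± 0.19 on the high fat diet (-0.60 to 0.19, adjusted p = 0.808). Averaged over diets it was -0.27 ± 0.13 (-0.54 to 0.00, adjusted p = 0.345). These intervals hold the value of Per3 on the high fat diet, -0.53, as well as 0. A second Per2 probe was detected on no array and read 4.87 to 5.12.

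Per1 is the Period gene best known for its quick response to hormones and light. In WT hearts on the normal diet it read 7.60, 6.37, 6.60, 6.33 and 6.04, and in CCM hearts 5.88, 6.42, 5.55, 7.87 and 6.65. High-fat-fed WT hearts read 7.31, 6.66, 7.01 and 6.96, and CCM hearts 7.16, 7.31, 6.16, 7.25 and 6.61. Both the lowest and the highest of the 19 values were from CCM hearts on the normal diet.

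Per1 differed between genotypes by -0.11 ± 0.36 on the normal diet (95% interval -0.86 to 0.64, adjusted p = 0.99) and by -0.09 ± 0.38 on the high fat diet (-0.89 to 0.71, adjusted p = 0.978). The interval averaged over diets, -0.65 to 0.45 around -0.10, comes close at its lower end to the value of Per3, -0.66. Its SD within groups was 0.624, larger than in 99% of all genes and than in 98% of genes of similar brightness. The SDs of the other members were 0.296 for Per2 (76.6% of genes lower), 0.271 for Per3 (70.9%), 0.324 for Cry2 (81.8%) and 0.208 for Ciart (49.9%), beside a median of 0.208. The Ciart value pools CCM arrays that did not detect it with WT arrays that did. Its SDs were 0.086 and 0.101 in CCM hearts on the normal and high fat diets, and 0.33 and 0.217 in WT hearts.

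The high fat diet changed none of the 5 repressors by this test in either genotype, where 0.0407% of all genes passed in WT hearts (6 genes) and 0.0271% in CCM hearts (4 genes). In WT hearts the differences, high fat minus normal, were 0.40 ± 0.38 for Per1, -0.25 ± 0.19 for Per2, -0.05 ± 0.17 for Per3, 0.17 ± 0.20 for Cry2 and -0.23 ± 0.14 for Ciart, each with an adjusted p of 1. In CCM hearts they were 0.42 ± 0.36 for Per1, -0.13 ± 0.18 for Per2, 0.22 ± 0.16 for Per3 and 0.29 ± 0.19 for Cry2, with adjusted p-values of 0.616 to 0.825. Ciart was below detection on both diets there. The unadjusted p-values ran from 0.109 to 0.785 over the 5 members in WT hearts and from 0.14 to 0.479 over the 4 detected in CCM hearts. The test of a different genotype effect between the diets passed for 0% of all genes, and for the 4 members detected in both genotypes its unadjusted p ran from 0.272 to 0.964.

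**Figure D2:**
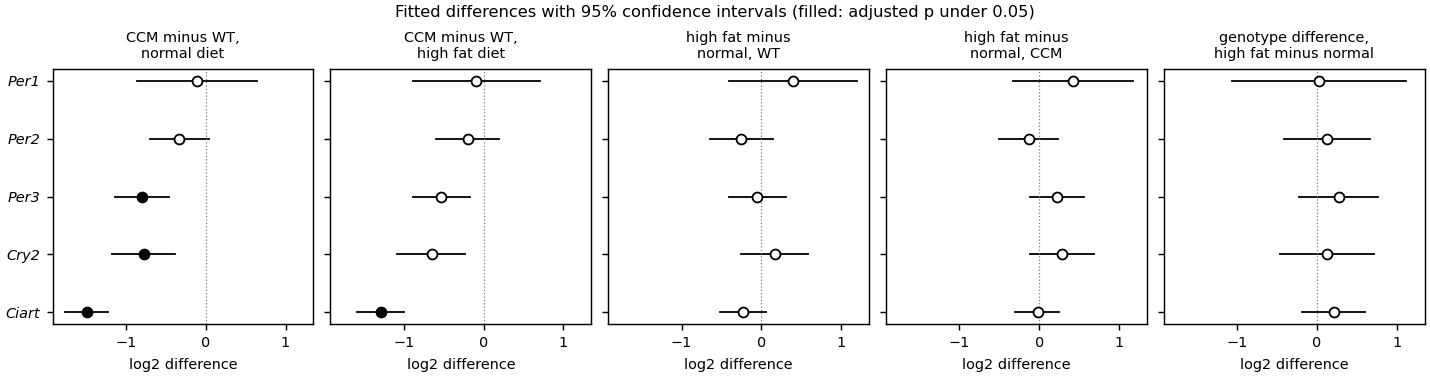
Fitted log2 differences (horizontal axes) with 95% confidence intervals for the 5 repressor genes in 5 comparisons; filled points passed an adjusted p of 0.05. All 5 genes lay below 0 between genotypes on both diets, with intervals that left out 0 for Ciart, Per3 and Cry2. The intervals are not adjusted, and on the high fat diet only Ciart passed the test. Every interval of a diet comparison included 0. The values of Ciart use CCM arrays that did not detect it.

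Ordered by group mean, Ciart ran from CCM on the high fat diet (5.01) through CCM on the normal diet (5.04) and WT on the high fat diet (6.30) to WT on the normal diet (6.53). Per3 ran from CCM normal (7.63) through CCM high fat (7.85) and WT high fat (8.38) to WT normal (8.43), and Cry2 from CCM normal (7.32) through CCM high fat (7.61) and WT normal (8.09) to WT high fat (8.26). For these 3 genes the single step larger than the SDs on either side was the one from CCM to WT. Per2 rose from 9.95 in CCM high fat through 10.08 in CCM normal and 10.16 in WT high fat to 10.41 in WT normal, and Per1 from 6.47 in CCM normal through 6.59 in WT normal and 6.90 in CCM high fat to 6.99 in WT high fat. No neighbours in those 2 orders differed by more than their SDs.

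The animals' numbers split into 10 under 20 and 9 over 20, with 2 or 3 animals of every group in each, and the labels do not say what a number stands for. Cry2 was lower in the animals numbered under 20 by 0.40 ± 0.08 on the log2 scale (adjusted p = 0.00337), as 14.5% of all genes differed in one direction or the other. The other 4 members did not pass (adjusted p = 0.556 to 0.697). In CCM hearts on the normal diet Cry2 read 6.75, 7.05 and 7.0 in the lower numbers and 7.80 and 7.98 in the higher ones. Within the lower numbers the genotype difference of Cry2 on the normal diet was -1.11 ± 0.18 (adjusted p = 0.0232), and within the higher ones -0.23 ± 0.12 (adjusted p = 0.407), where 0.569% and 0.576% of all genes passed. The 2 values for the high fat diet were -0.62 and -0.63.

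The difference between those Cry2 values on the normal diet, -0.87 ± 0.22, had an unadjusted p of 0.00107 and an adjusted p of 0.123. For Per1, which differed by -1.04 between genotypes in the lower and by 0.94 in the higher numbers, it was -1.98 ± 0.61 (unadjusted p = 0.00568, adjusted p = 0.158). None of the genes passed that test (0%), and 2455 had an unadjusted p under 0.05. On the normal diet Per3 differed by -0.78 (adjusted p = 0.257) in the lower and -0.89 (adjusted p = 0.119) in the higher numbers, so its call was lost in the smaller sets. Ciart differed by -1.55 (adjusted p = 0.0112) and -1.47 (adjusted p = 0.0069). For the high fat diet the corresponding values were -0.39 and -0.70 for Per3, and -1.29 and -1.30 for Ciart. With the number class as a block Cry2 passed on both diets (-0.70, adjusted p = 0.0129, and -0.61, adjusted p = 0.0404), as did 2.46% and 2.68% of all genes.

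**Figure D3:**
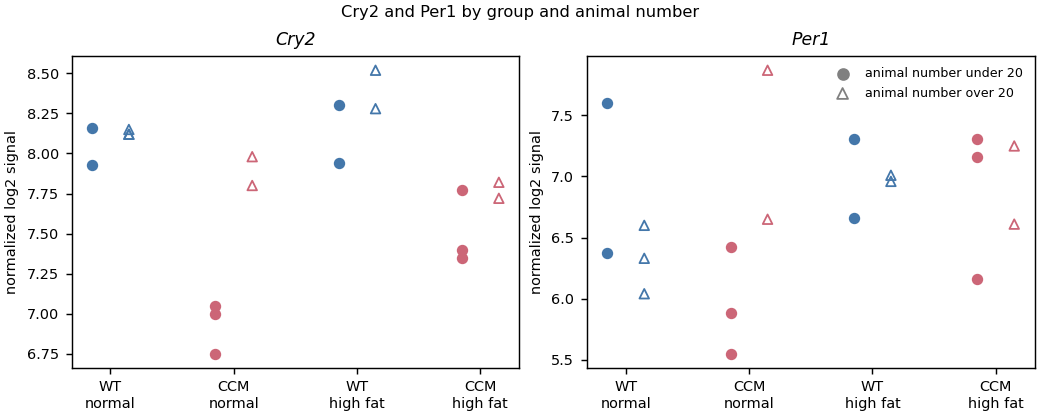
Normalized log2 signal of Cry2 and Per1 (vertical axes) in each animal by genotype and diet, with animals numbered under 20 as filled circles and over 20 as open triangles. The 3 CCM hearts on the normal diet with low numbers held the lowest Cry2 values, 6.75 to 7.05.

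The other transcription factors of the clock moved in both directions. Of 14 in the list 12 were measured, and averaged over diets 4 rose and 3 fell in CCM hearts (median -0.038), where 5.02% of all genes passed. The 4 include Clock, the gene of the transgene, whose rise follows from the genotype. Besides Clock, Arntl, which encodes the partner of CLOCK, rose by 0.98 ± 0.11 (adjusted p = 1.18e-05), and Rorb, an activator of Arntl, by 0.47 ± 0.10 (adjusted p = 0.00582). The genes of the D-box factors fell, with differences of -1.81 ± 0.11 for Dbp (adjusted p = 1.64e-09) and -1.43 ± 0.08 for Tef (adjusted p = 8.2e-10). Of the pair of receptor genes that repress Arntl, Nr1d2 fell (-0.91 ± 0.21, adjusted p = 0.0139) and Nr1d1, named after its value was seen to complete the count, rose (0.41 ± 0.10, adjusted p = 0.0147). With normal food 2 rose and 2 fell, and 3 rose and 2 fell on high fat food, with Clock again among those that rose.

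Of 16 genes whose proteins bind, modify or degrade PER and CRY, 13 were measured. Averaged over diets 1 rose and 2 fell (median -0.048), where 5.02% of all genes passed and 2.62% fell. Usp2, a deubiquitinase that acts on clock proteins, fell by 0.75 ± 0.14 (adjusted p = 0.00216). The casein kinases that phosphorylate PER went opposite ways, Csnk1d up by 0.33 ± 0.07 (adjusted p = 0.00639) and Csnk1e down by 0.30 ± 0.08 (adjusted p = 0.0348). The next 3 by p did not pass: the kinase gene Gsk3b differed by 0.19, Ddb1, of a ubiquitin ligase, by 0.15 and Nono, a PER-binding protein gene, by 0.36 (adjusted p = 0.262 to 0.68). On the normal diet none of the 13 passed (1.91% of all genes did), and on the high fat diet 1 fell (1.09% of all genes did).

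**Figure D4:**
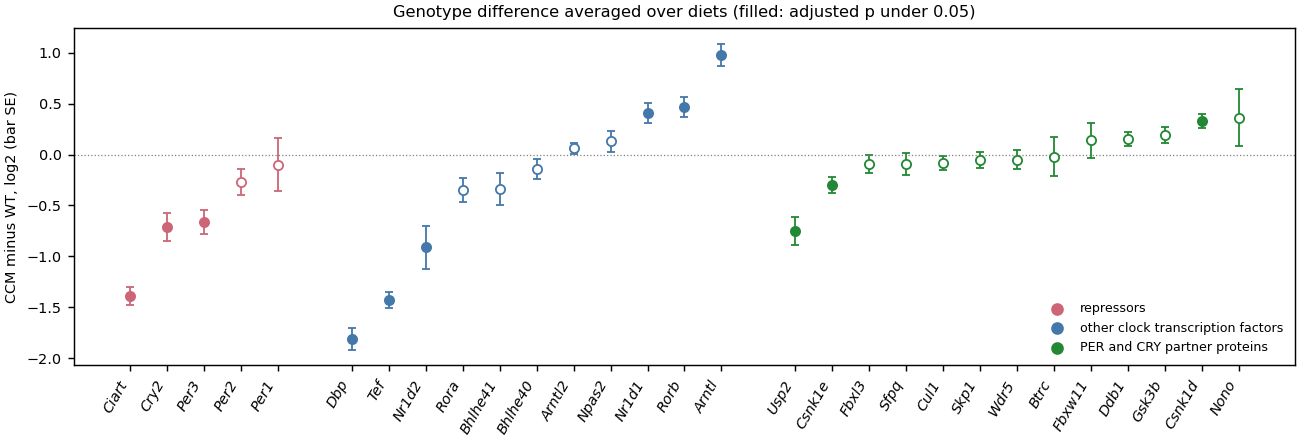
Genotype difference averaged over diets (CCM minus WT, log2, vertical axis; bars are SE) for the 5 repressors, 11 other clock transcription factors and 13 partner genes of PER and CRY; filled points passed an adjusted p of 0.05, and Clock, at 7.77, is left out. Dbp (-1.81) and Tef (-1.43) lie at the low end of the other factors and Arntl (0.98) at the high end; the point of Ciart is fitted to CCM values below detection.

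Of the marker genes of other cells 1 passed the test between genotypes averaged over diets, beside 5.02% of all genes. The 5 erythroid markers had a median difference of -0.34, with none past the test, and their mean was 12.44 to 12.89 in WT and 11.75 to 12.44 in CCM hearts on the normal diet, and 12.51 to 12.84 and 12.05 to 12.75 on the high fat diet. The gene that passed was Acta2, 1 of 3 smooth muscle markers measured, named after its value was seen (-0.49 ± 0.12, adjusted p = 0.0168), and their mean ran from 8.71 to 10.03 in WT and from 8.56 to 9.48 in CCM hearts. No marker of endothelium (6 measured), fibroblasts (6), macrophages (4) or adipocytes (2) passed. The 2 adipocyte markers had a median difference of 0.86 on the normal diet, -0.84 on the high fat diet and 0.011 averaged, and did not pass in any of these comparisons. The part of these cells in the repressor differences was not tested.

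Among WT hearts, animals varied together in Ciart and Per2. After removal of each diet group's mean, 20 pairs of members and 20 relations of a member with the mean of immediate early genes or of glucocorticoid target genes were tested, 40 in all. Across the 9 WT hearts Per2 and Ciart correlated at r = 0.96 (permutation p = 0.000138, adjusted p = 0.00551) and rho = 0.97 (permutation p = 0.000165, adjusted p = 0.00661). Without the 2 hearts farthest from the Per2 median r was 0.87 (permutation p = 0.0123, adjusted p = 0.164), and the adjusted call was lost. Whether that came from those hearts or from the smaller number of animals was not tested. One of the 2 hearts left out was WT normal diet replicate 1, which had the array of lowest mean signal. That heart was the highest of its group for Per1, Per2, Per3, Cry2 and Ciart, for Cry2 only narrowly (8.16 against 8.15). The part of that array's signal in the relation was not tested. In the 10 CCM hearts, where Ciart was not detected, r was 0.09 (permutation p = 0.814) and rho 0.19 (permutation p = 0.605).

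No other relation passed the adjustment, and 8 of the 40 had an unadjusted permutation p under 0.05. In WT hearts Per3 and Ciart had r = 0.75 and Per1 and Per2 r = 0.69, which fell to 0.29 and 0.35 without the 2 farthest hearts. Those are the hearts farthest from the median of the member named first, so they can differ between relations. In CCM hearts Per1 correlated with the mean of 12 glucocorticoid target genes at r = 0.75, but at 0.05 without the 2 farthest hearts. With the mean of 13 immediate early genes Per1 had r = 0.66 there (0.81 without the 2 farthest). In WT hearts the same relations of Per1 had r = 0.60 and -0.51 (unadjusted permutation p = 0.087 and 0.165). Per2 and the glucocorticoid target genes had r = 0.74 in CCM hearts (0.50 without the 2 farthest) and Per3 -0.69 (-0.30). Per1 and Cry2 had r = 0.68 in CCM hearts (0.56) and -0.04 in WT hearts. The number classes held too few animals of a genotype for a value within each.

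**Figure D5:**
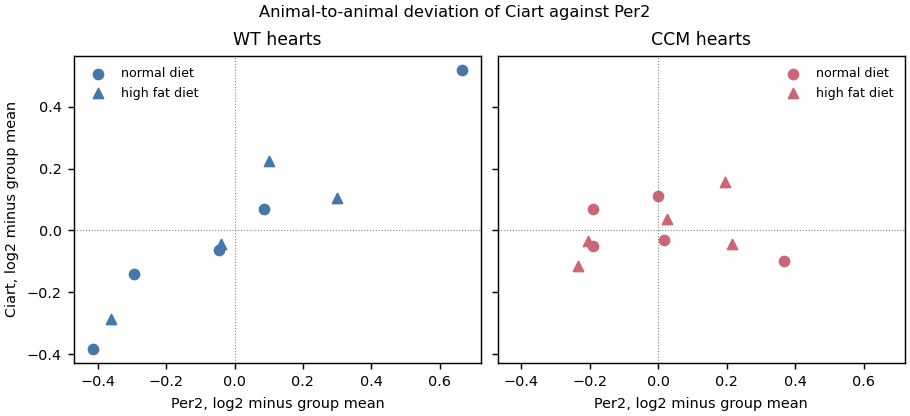
Deviation of Ciart from its group mean (vertical axis, log2) against that of Per2 (horizontal axis, log2) in 9 WT hearts (left) and 10 CCM hearts (right); circles are the normal and triangles the high fat diet. The WT points lie along a line (r = 0.96), with 1 heart on the normal diet far up at the right, and the CCM points, where Ciart was not detected, show no such line (r = 0.09).

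Likeness to each member was measured as Pearson's r over the 19 animals, among 8979 genes detected on every array and carrying an official-style symbol, as a description. Animals of a genotype share its shift, so the values for the genes that fell in CCM hearts are high by construction. Ciart was most like Dbp and Tef (r = 0.98 for both) and Maco1 (0.97), and least like Igf2bp2 (-0.96), which encodes an RNA-binding protein and rose by 1.53 ± 0.10 in CCM hearts (adjusted p = 6.09e-09). Per3 was most like Tef (0.87), Ip6k3, an inositol phosphate kinase gene (0.86), and Dbp (0.86), and also least like Igf2bp2 (-0.86). Cry2 was most like Cutc (0.94), Shld1 (0.93) and Maob, which encodes a monoamine oxidase (0.92), and least like Mrpl20 (-0.94). Per1 was most like Errfi1, an inhibitor of the EGF receptor (0.88), Maff (0.86) and Rgcc (0.85), and least like Phxr4 (-0.79). Per2 was most like Tubb2b (0.78), Fam117b (0.76) and Atxn7 (0.76), and least like Fndc10 (-0.80).

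With each group's mean removed, the leading genes changed in part, while Errfi1 stayed the most like Per1 and Fndc10 the least like Per2. Ciart was then most like Opcml (0.82), Maco1 (0.79) and Per2 (0.77), and least like Tmem108 (-0.78). Per1 was most like Errfi1 (0.91), the mRNA decay factor gene Zfp36 (0.87) and Klf15 (0.86), a glucocorticoid-induced transcription factor, and least like Bloc1s5 (-0.86). Cry2 correlated highly with Acadm, an enzyme of fatty acid oxidation (0.96), and Hes1 (0.95), and was least like Ino80d (-0.95). The animal number classes, between which Cry2 differed, were removed in neither measure. Their part in these values was not tested. Per3 was most like Elovl5 (0.81), Gng12 (0.77) and Cd109 (0.76), and least like Bud13 (-0.84), and Per2 most like Olfr479 (0.83), Kcna5 (0.81) and Tubb2b (0.81), and least like Fndc10 (-0.80).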

How the data were processed

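Heart RNA of 19 mice was hybridised to bead arrays with 50-base probes, 1 array per animal, and groups were taken from the labels. The authors deposited average bead intensities on a linear scale, not normalized between arrays, each with its detection p-value, per the file headers. They also deposited normalized intensities, which served as an alternative and whose method no header or label states. The submitters' processing notes list BeadStudio 3.

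Names were updated through RefSeq tables (26165 of 46643 probes by accession, 4619 by symbol and 3899 by older symbol; 11955 keep the file's name and 5 have none). Intensities were background corrected and quantile normalized (neqc of limma 3.58.1 under R 4.3.3, offset 16, background from the detection p-values), which gives log2 values and understates differences of dim genes. The filter kept 19840 probes with a detection p under 0.05 on 4 or more of the 19 arrays, and each gene took its brightest such probe. Of the 8 member probes 5 were kept, and 2 were detected on no array. The model, lmFit with eBayes, had 1 mean for each group of the 19 animals, 15 residual degrees of freedom and 3.62 from the prior, and was tested two-sided, with Benjamini-Hochberg adjustment over 14759 genes. The steps were tested on simulated data. The array number and the signal above background limit the precision. No pair of arrays shared identical signals at more than 0.00214% of probes.

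Correlations were taken within a genotype on values minus the group mean, with two-sided permutation tests (all orders for 9 animals, 100000 resamples for 10). Animals were permuted across both diets although each diet group's mean had been removed, so the permutation p-values are approximate. The members, lists, motifs and alternatives were chosen with earlier results of these data known. By rule the text names every member probe, Clock, up to 6 genes of each clock list with the smallest p in the averaged genotype comparison, and for each member the 3 most like genes and the least like one; a few items that this rule covers, 1 of them a list gene left out of its list's counts, are not reported here. Alternatives were other offsets, background corrections, normalizations, detection filters, probe choices, variance models, array weights, fits of the compared groups only, animal number classes and fits without single arrays. Headers name no chips, so no chip block was fitted.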

Additional observations from a re-analysis of the deposited data

Results flagged for a closer look

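Cry2 in WT normal diet replicate 2 read 7.93, below the other 4 hearts of its group, which read 8.12 to 8.16. Its gap to the nearest heart was 0.826 of the group's range, above Dixon's 95% critical value of 0.71 for 5 samples. It was the 1 value that stood apart in this way among 20 groups of 4 or 5 animals tested, and chance gives about 1 in 20.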

How the results depend on the processing

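Ciart read lower in CCM hearts in every setting that tested it, which adds no support, since no CCM array detected it. Its fitted difference on the normal diet ran from -1.55 to -0.75 over the settings other than single arrays left out. The detection filter on every array, which leaves Ciart out, gave 0 members called on the high fat diet. On the normal diet, where 3 members were called, 1 was called with the compared groups alone (Cry2 adjusted p = 0.171), 1 in animals numbered over 20 and 1 without the 3 arrays of lowest mean signal (Cry2 adjusted p = 0.129). A constant shift of each array and no detection filter gave 2 members, with Cry2 at adjusted p = 0.0627 and 0.0805. On the high fat diet 2 were called with array weights (Cry2 adjusted p = 0.0194) and 2 with the animal number block. Averaged over diets 1 was called in animals numbered over 20 (Per3 adjusted p = 0.0557, Cry2 0.0584). Without each animal in turn, the calls numbered 2 to 3 on the normal diet, 1 on the high fat diet, 3 averaged over diets and 0 in the other comparisons. Over all genes 282 calls on the normal diet became 177 with the compared groups alone and 84 and 85 in the low and high animal numbers. They became 198 without the 3 arrays, 218 with the shift and 259 (of 32289 genes) with no detection filter. The 288 calls on the high fat diet became 90 and 48 in the number classes and 180 without the 3 arrays. They rose to 420 with array weights and to 395 with the number block. Detection on every array gave 272 calls there (of 11234 genes). The 741 calls averaged over diets became 248 and 203 in the low and high animal numbers.

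Differences that changed sign had not passed the test. In animals numbered over 20, Per1 turned to 0.94 on the normal diet, 0.44 averaged and -0.34 for diet in CCM hearts, Cry2 to -0.12 for diet in CCM hearts and Per3 to 0.08 for diet in WT hearts, and the difference of the genotype effect between diets turned to -1.0 for Per1, -0.02 for Per2 and -0.40 for Cry2. Array weights gave 0.02 for Per1 on the normal diet, 0.03 for Per3 by diet in WT and -0.14 for the Per1 difference between diets. Without the 3 arrays of lowest signal these were 0.14, 0.06 and -0.46, and the Per2 difference between diets was -0.03. The shift gave 0.01 for Ciart by diet in CCM hearts. Without single animals, Per1 ran from -0.46 to 0.14 on the normal diet, -0.20 to 0.10 on the high fat diet and -0.28 to 0.03 averaged, Per3 by diet in WT from -0.17 to 0.06, and the differences between diets from -0.23 to 0.37 for Per1, -0.04 to 0.23 for Per2 and -0.02 to 0.29 for Cry2. The cause of these changes was not tested. Of the pairs of members 1 passed in each setting, but without the 2 farthest hearts it was Per2 with Cry2 in WT hearts (r = -0.85, adjusted permutation p = 0.00794). No paired analysis was possible because the labels number animals singly and share no number between groups. Signal near background limits Ciart in CCM hearts and the second probes of Per2, Per3 and Cry2.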
